A study of Mus musculus with 4 samples.

Results

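Fibroblast growth factors (FGFs) are signalling proteins that pass between the layers of a tissue. Secreted FGFs bind receptor tyrosine kinases (FGFR1 to FGFR4) together with heparan sulfate chains at the cell surface, the docking protein FRS2 is phosphorylated by the receptor, and the signal runs on through GRB2, SOS, RAS and the MAP kinases to genes of the sprouty, DUSP and ETV families, several of which damp the pathway again. The endocrine FGFs bind heparan sulfate weakly and need a klotho protein as co-receptor, while the intracellular FGFs are not secreted and bind the tails of voltage-gated sodium channels. In the ear, FGFs help to induce the otic placode and to shape the outer and middle ear, and FGF2 is known for its use in closing perforations of the eardrum. The family was taken from the array by name: every probe whose RefSeq transcript belongs to an Fgf, Fgfr, Fgfrl1 or Fgfbp gene, or to Kl, Klb, Frs2 or Frs3. That rule found 33 genes with 47 probes among the 39429 probes of the array, and 27655 of these probes could be given a gene symbol.

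The study asked which genes respond in the middle ear to diesel exhaust particles (DEPs), the soot fraction of diesel exhaust. It used 9 male BALB/c mice aged 6 to 10 weeks. DEPs were inhaled for 1 h on each of 5 days, and the mice were killed on day 14. The region of the temporal bone that holds the middle ear was taken, and middle ears were dissected before RNA extraction. How much neighbouring tissue remained in a sample is not given. RNA was hybridised to 4 two-colour arrays on 1 slide, labelled as biological replicates 1 to 4, and on every array the source names put DEP RNA in the red dye (Cy5) and control RNA in the green one (Cy3). The control group's treatment is given as none, so it is not said whether those mice inhaled the vehicle, the methods give 2 concentrations for the inhaled suspension, and the number of mice behind an extract is not given. The middle ear was taken as a whole tissue, in which fewer cells of a type and less RNA per cell cannot be told apart. Markers of its mucosa (Bpifa1, Foxj1), bone (Ibsp) and cartilage (Col2a1) were above background in each channel of every array. The dyes were not swapped, so dye and treatment cannot be told apart either.

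All values are log2 ratios of DEP over control, or processed signals of the DEP and the control channel, which are background-subtracted and dye-normalized brightness values with an arbitrary unit. Both treatments are listed under the red channel in the labels and no treatment under the green channel, and the channels are called DEP and control by their source names alone. For some listed genes the study gives the direction opposite to the one found here, both among genes it lists as raised, as for Slc1a2, and among those it lists as lowered, as for Sos1, by PCR as well. Slc1a2, a glutamate transporter of astrocytes, was above background in both channels of every array and read -2.53, -2.38, -0.68 and -0.85, while the control channel of Sos1 was mostly not above background. The opposite direction was not found for every listed gene, Fgf8 with its brightest probe being an exception, and how many listed genes differ was not counted. Exchanging the channels would turn the sign of every ratio below, keep its size, and swap the counts and shares given for higher and for lower genes. The arrays were not alike: over the probes above background throughout, the ratios of arrays 1 and 2 correlated with r = 0.64 and those of arrays 1 and 4 with r = -0.46, as a description across probes that share their array. Ratios spread most on array 1, with an SD of 0.90 over genes, and an SD from 0.46 to 0.55 was found on each other array. With 4 ratios an exact sign-flip test cannot give a two-sided p below 0.125, so p-values are those of limma's moderated test fitted across all probes.

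A probe counts as measured where the scanner software called both of its channels well above background and did so on every array. Where a probe had several spots on an array, a single spot above background was enough. By this measure 20 of the 33 genes were measured, with 29 probes. They are Fgf1, Fgf6, Fgf7, Fgf9, Fgf10, Fgf18 and Fgf23 among the secreted ligands, the intracellular Fgf12, Fgf13 and Fgf14, all 5 receptors, both klothos, both binding proteins on the array and the adaptor Frs2. A further 8 genes were above background in some channels only (Fgf2, Fgf4, Fgf5, Fgf8, Fgf11, Fgf17, Fgf22 and Frs3). The remaining 5, namely Fgf3, Fgf15, Fgf16, Fgf20 and Fgf21, were above background in neither channel of any array. Some of these genes lie side by side: Fgf6 and Fgf23, both measured, are neighbours in the RefSeq gene order, and so are Fgf3 and Fgf4, neither of them measured.

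No member of the family passed the test. Of the 28 genes with a ratio on at least 3 arrays, 0 had an adjusted p under 0.05 in limma, as did 0% of the 25694 genes tested. An unadjusted p under 0.05 was found for 6 of the 28, against 18.7% of all genes tested, with Fgf8, Fgf10 and Klb higher and Fgf13, Fgf14 and Fgf15 lower in the DEP channel. Among the 20 measured genes it was 4, against 12.6% of all genes measured in the same way: 2 were higher, against 6.56%, and 2 lower, against 6.07%. Neither count is a result about the family, since shares of that order were found among all genes. None of the 28 was past 2-fold by its mean ratio, against 6.75% of all genes tested and 3.15% of those measured. The count of genes passing depended on the normalization: with normexp background correction and each array centred on its median it was 4, with Fgf10 at 0.38, Fgf23 at 0.47 and Fgfrl1 at 0.68 and Fgf13 at -0.43 in the mean, while 2988 of all genes passed and the median of all genes moved from 0.03 to 0.11.

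The 20 measured genes were evenly split, with 10 mean ratios above 0 and 10 below. Their median log2 ratio was 0.01, beside 0.03 over all genes measured so. The median SD between arrays was also alike, 0.29 for the family and 0.28 for all. Within the family, however, that SD ran from 0.14 for Fgfr3 to 2.09 for Fgfbp1. The genes that varied most did so chiefly on array 1, where Fgf1, Fgf9, Fgf12, Kl and Fgfbp1 lay past 2-fold in one direction or the other, which is 5 of 20 genes against 13.9% of all measured genes. On arrays 2 and 3 no measured member was past 2-fold, against 4.82% and 5.19% of all measured genes, and on array 4 Fgfbp1 alone was, against 3.79%.

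**Figure D1:**
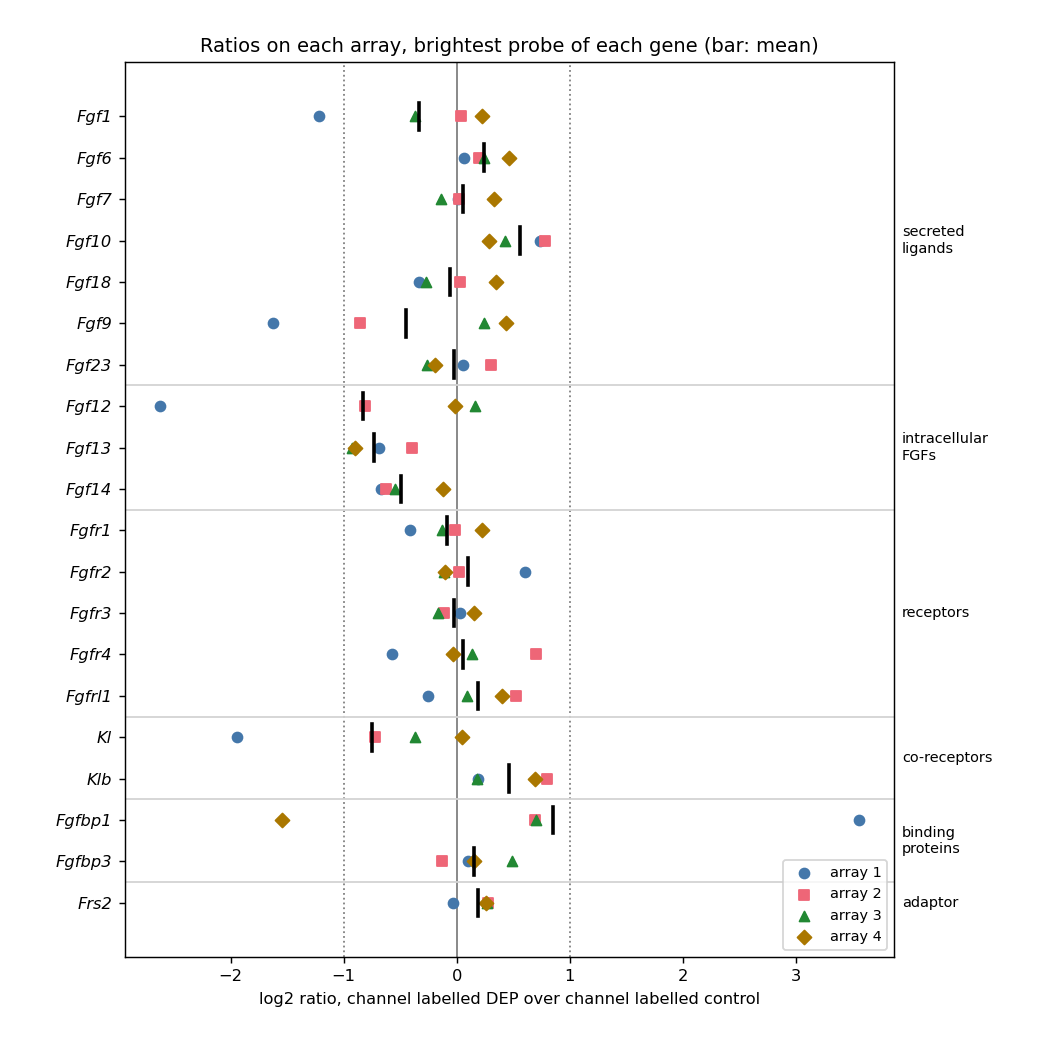
The log2 ratio (x axis, DEP over control) of the brightest probe of each of the 20 measured genes is shown on each of the 4 arrays, with 1 symbol per array, a black bar at the mean and dotted lines at 2-fold. Most genes lie near 0, Fgf10, Klb and Fgf6 lie to the right and Fgf13 and Fgf14 to the left on all arrays, and Fgf12, Fgf9, Kl and Fgfbp1 spread widely, with array 1 outermost.

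Fgf10 read higher in the DEP channel on every array, and it was the single member whose channels did not overlap. FGF10 is made by mesenchyme and acts on the epithelium above it through a splice form of FGFR2. Its probe gave signals of 222, 155, 197 and 161 in the DEP channel on arrays 1 to 4. The control channel gave 133, 90.1, 146 and 132. The lowest DEP signal, on array 2, thus lay above the highest control signal, on array 3. Channels did not overlap for 1.43% of all measured genes and 3.89% of all tested. The log2 ratios were 0.74, 0.78, 0.43 and 0.29, with a mean of 0.56 ± 0.24 (SD, n = 4 arrays), a 95% interval of 0.21 to 0.91 and an adjusted p = 0.165 in limma. The mean corresponds to 1.47-fold. Under normexp the mean log2 ratio was smaller, at 0.31 with loess and 0.38 with median centring. Each array carries 10 spots of this probe, which were averaged. Beside it, 6 of the 8 markers of fibroblasts, the cells of the mesenchyme, had mean ratios above 0 and none passed the test even before adjustment. Their medians on arrays 1 to 4 were -0.11, 0.11, -0.20 and 0.60. Their summed signal lay between 132241 and 199656 in the DEP channel and between 102266 and 244558 in the control channel, with every marker above background. The fibroblast medians were thus below 0 on arrays 1 and 3, where Fgf10 was above 0. Their part in the result was not tested.

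Klb, the co-receptor β-klotho that the metabolic FGFs need in liver and fat, was also higher on all 4 arrays. Its signals were 160, 240, 225 and 130 in the DEP channel. In the control channel they were 140, 138, 199 and 80.4. The channels overlapped, since the DEP signals of arrays 1 and 4 lay below the control signal of array 3. Its log2 ratios were 0.19, 0.80, 0.18 and 0.69, with a mean of 0.47 ± 0.33 (SD, n = 4 arrays), an unadjusted p = 0.0334 and an adjusted p = 0.239 in limma. The unadjusted p was over 0.05 under both normexp settings (0.112 with loess and 0.0546 with median centring), without moderation (0.0652), without array 2 (0.125) and without array 4 (0.115). The mean was 0.24 with loess, 0.31 with median centring, 0.35 without array 2 and 0.39 without array 4, and moderation leaves it as it is. Arrays 2 and 4 gave the higher ratios. The markers of adipocytes were also highest on arrays 2 and 4, with medians of -0.06, 0.59, -0.03 and 0.77 on arrays 1 to 4. Of these 8 markers 6 had mean ratios above 0, and Cidec, a lipid droplet protein, was higher with an unadjusted p under 0.05. The summed adipocyte signal lay between 111678 and 163604 in the DEP channel and between 78782 and 205402 in the control channel, and every marker was above background. Their part in the result for Klb was not tested.

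The promoters of these genes are shown beside those of Fgf9 and Kl, whose ratios followed the arrays in another way. The motif GCGTG, or CACGC on the other strand, is the core of the element bound by the aryl hydrocarbon receptor, which polycyclic hydrocarbons of diesel soot can activate, and GGGCGG, or CCGCCC, is the GC box of housekeeping promoters. Both are in capitals in the following 250 bases before each RefSeq start (GRCm38.p6, all on the plus strand), printed because Fgf10 and Klb were higher and Fgf9 and Kl were not.
Fgf10, chr13:118714449-118714698: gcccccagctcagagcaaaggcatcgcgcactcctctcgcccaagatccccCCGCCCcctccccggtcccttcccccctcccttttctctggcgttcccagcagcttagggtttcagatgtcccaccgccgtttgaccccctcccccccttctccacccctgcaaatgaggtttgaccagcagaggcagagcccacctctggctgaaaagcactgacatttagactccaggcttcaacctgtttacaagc
Klb, chr5:65348161-65348410: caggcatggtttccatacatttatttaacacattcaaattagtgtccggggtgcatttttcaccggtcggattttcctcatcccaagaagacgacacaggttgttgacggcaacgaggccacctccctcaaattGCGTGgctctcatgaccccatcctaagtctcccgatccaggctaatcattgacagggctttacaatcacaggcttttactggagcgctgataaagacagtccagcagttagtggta
Fgf9, chr14:58072436-58072685: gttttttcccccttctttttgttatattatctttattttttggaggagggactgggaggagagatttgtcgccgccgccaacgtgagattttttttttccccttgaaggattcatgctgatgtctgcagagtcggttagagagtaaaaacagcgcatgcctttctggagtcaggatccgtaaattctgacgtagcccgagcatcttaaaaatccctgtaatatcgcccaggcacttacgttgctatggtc
Kl, chr5:150952357-150952606: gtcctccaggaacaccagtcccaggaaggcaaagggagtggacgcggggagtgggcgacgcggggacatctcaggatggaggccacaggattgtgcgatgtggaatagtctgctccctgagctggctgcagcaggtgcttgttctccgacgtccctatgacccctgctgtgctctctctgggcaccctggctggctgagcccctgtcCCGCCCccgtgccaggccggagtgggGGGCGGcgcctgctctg
Of these windows Klb's holds 1 copy of GCGTG and the others none, while Kl's holds 2 GC boxes, Fgf10's holds 1 and the remaining ones none. Over the family, RefSeq promoter windows reaching 50 bases past the start were at hand for 26 of the 33 genes. GCGTG was present in 17 of the 26 (65.4%), against 35.2% of all 27025 genes with a window, and GGGCGG likewise in 17 of 26 (65.4%), against 38.2%. The family's windows were also richer in G and C, with a median of 62.4% against 52.4%. TATAAA was found in 5 of 26 (19.2%), against 15.7%. A match is a description of the letters and not a binding site. Fgfbp1 and Fgf12, the measured genes with the highest and the lowest mean ratio of the family, both hold GCGTG.

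Among the secreted ligands the other measured genes gave no common direction. Fgf7, the keratinocyte growth factor that shares its receptor with FGF10, gave signals of 1188, 993, 877 and 888 in the DEP channel. Its control signals were 1181, 982, 967 and 705, so the channels overlapped and only array 4 stood apart, by its low control. On the log2 scale Fgf7 averaged 0.05 ± 0.20 (SD, n = 4 arrays), with a 95% interval of -0.27 to 0.37. FGF7 and FGF10 belong to 1 subfamily, and of its other members Fgf22 was above background on arrays 1 and 2 only and Fgf3 on none.

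Fgf6, known for its expression in skeletal muscle, was higher on all 4 arrays by a small step, as were 15.4% of all measured genes. Its log2 ratios were 0.07, 0.19, 0.24 and 0.47, with a mean of 0.24 ± 0.17 (SD, n = 4 arrays) and an adjusted p = 0.335 in limma. The signals of array 1 stood far above the rest in both dyes, at 265 and 253, whereas the other arrays lay between 63.9 and 90.9 in the DEP channel and between 54.2 and 65.8 in the control channel. Muscle markers were also brightest on array 1 in both channels. Their summed signal there was 726141 in the DEP channel and 1214900 in the control channel. On the other arrays it lay between 422685 and 597955 in the former and between 360102 and 569731 in the latter. The 12 muscle markers split into 7 with mean ratios above 0 and 5 below, with array medians of -0.87, -0.51, 0.71 and 0.74, and all were above background. Their part in the result for Fgf6 was not tested.

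Fgf18, a regulator of cartilage and bone growth, was measured by 2 probes, whose means were -0.06 ± 0.32 and 0.12 ± 0.45 (SD, n = 4 arrays). Both probes were below 0 on arrays 1 and 3 and above 0 on arrays 2 and 4. Cartilage markers had array medians of -0.35, 0.34, 0.41 and 0.15, with 6 of 8 means above 0 and 0 with an unadjusted p under 0.05. Fgf23, the phosphate-lowering hormone of osteocytes, gave -0.03 ± 0.26 by its brightest probe (A_55_P2169514) and -0.48 ± 0.50 by the other (A_55_P1976655). The brightest probe read 0.06, 0.30, -0.26 and -0.20 on arrays 1 to 4, so its direction was mixed. Markers of bone, the tissue in which the middle ear lies, had array medians of -0.46, 0.17, 0.68 and 0.63, a sequence that Fgf23 did not share. Of the 9 bone markers on the array 6 were above 0 in the mean, and Runx2 and Dmp1 were higher with an unadjusted p under 0.05. The summed signal of the 8 measured bone markers lay between 59986 and 103480 in the DEP channel and between 73441 and 134327 in the control channel.

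Fgf1 and Fgf9 read lower on array 1. FGF1, which binds every FGF receptor, gave signals of 5073, 7166, 8437 and 7381 in the DEP channel with its brightest probe (A_55_P2047188). The control signals were 11810, 6973, 10869 and 6318, so that arrays 1 and 3 were high there and arrays 2 and 4 lay inside the range of the other channel. As log2 ratios these gave -1.22, 0.04, -0.37 and 0.22, with a mean of -0.33 ± 0.64 (SD, n = 4 arrays) and an adjusted p = 0.534 in limma, and normexp with median centring turned the mean to 0.13. Without array 1 the mean was -0.03, and without array 2, 3 or 4 it was -0.45, -0.32 or -0.52. The second Fgf1 probe (A_52_P538673), to the same transcript, was lower on every array, at -0.63, -0.35, -1.25 and -1.14. Its mean was -0.84 ± 0.43 (SD, n = 4 arrays), with an unadjusted p = 0.00714 and an adjusted p = 0.157. The probes were furthest apart on arrays 3 and 4, and the array on which the first one was lowest was not the lowest for the second.

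FGF9 is made by epithelia and by neurons and signals to mesenchyme and to glia. The probe for Fgf9 gave 451, 541, 464 and 483 in the DEP channel. In the control channel it gave 1393, 980, 392 and 358. The DEP signals were thus nearly level, and the control signals of arrays 1 and 2 were the high ones. The log2 ratios were -1.63, -0.86, 0.25 and 0.43, with a mean of -0.45 ± 0.97 (SD, n = 4 arrays), smaller than its SD, and an adjusted p = 0.557 in limma. Without array 1 the mean was -0.06, and without array 2, 3 or 4 it was -0.32, -0.68 or -0.75.

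The intracellular FGFs Fgf11, Fgf12, Fgf13 and Fgf14 had mean ratios below 0, with a median of -0.61 over the 4 genes, and 2 of them were lower with an unadjusted p under 0.05. Of all tested genes 18.7% had such a p in either direction, and the median of all genes was 0.03. FGF12, FGF13 and FGF14 are made by neurons, where they set how sodium channels inactivate. Fgf13 gave signals of 221, 143, 154 and 157 in the DEP channel. The control signals were 358, 187, 294 and 294. Each array was lower in the DEP channel, but the control signal of array 2 fell below the DEP signal of array 1, so the channels overlapped. Its log2 ratios were -0.69, -0.39, -0.93 and -0.90, with a mean of -0.73 ± 0.25 (SD, n = 4 arrays) and a 95% interval of -1.08 to -0.38. The unadjusted p of 0.00316 gave an adjusted p = 0.128 in limma, the smallest among the genes of the family. The control was 1.66-fold above the DEP channel.

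Fgf14 was lower on all 4 arrays with each probe that had 4 ratios, as was the case for 10.7% of all measured genes by their brightest probe. The measured probe (A_55_P1976430) gave 90.5, 63.5, 47.2 and 56.3 in the DEP channel. Its control signals were 144, 98.2, 69.2 and 61.2. The gap closed on array 4, where both channels were close, and the channels overlapped. As log2 ratios these gave -0.67, -0.63, -0.55 and -0.12, with a mean of -0.49 ± 0.25 (SD, n = 4 arrays), an unadjusted p = 0.0162 and an adjusted p = 0.193 in limma. Without array 1, 2 or 3 the unadjusted p was 0.0502, 0.0699 or 0.0635, with means of -0.43, -0.45 and -0.47. Under normexp the mean was -0.24 with loess and -0.28 with median centring. A probe to another Fgf14 transcript (A_52_P1011) was above background on 3 control channels and on none of the DEP channels. Its control signals were 232, 168, 53.2 and 7.26, high on arrays 1 and 2 and lost on array 4. With the DEP channel set at the lowest signal that is above background, it was at least 2.86-fold lower in the DEP channel. Its mean normalized signals were 9.0 against 60.0. Such a bound is open to dye bias, and it was not tested. The probe's adjusted p = 0.135 in limma is that of its 3 ratios, taken with DEP signals not above background, and not that of the bound. The last probe (A_55_P2019998) was above background on 2 control channels only, and it gave log2 ratios of -2.41, -2.06, -1.84 and -1.63. Its adjusted p = 0.0922 in limma is the smallest that any probe of the array had, a value shared by 89 probes. Its ratios are taken against DEP signals not above background, so neither this p nor a fold can be read as measured.

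Fgf12 was lower in the DEP channel on arrays 1 and 2 and near 0 on arrays 3 and 4. The brightest probe (A_51_P126337) gave 325, 733, 686 and 691 in the DEP channel. The control signals were 2009, 1290, 615 and 698. Array 1 was thus the lowest in one channel and the highest in the other. The log2 ratios were -2.63, -0.82, 0.16 and -0.02, with a mean of -0.83 ± 1.27 (SD, n = 4 arrays) and an adjusted p = 0.420 in limma. Without array 3 or without array 4 the mean went past 2-fold, to -1.15 and -1.10, and without array 1 it was -0.22. The second probe (A_52_P193161) followed the first on every array, at -2.17, -0.63, 0.05 and -0.11. Fgf11 was above background on all DEP channels and on 3 control channels, with a mean of -0.11 ± 0.27 (SD, n = 4 arrays).

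**Figure D2:**
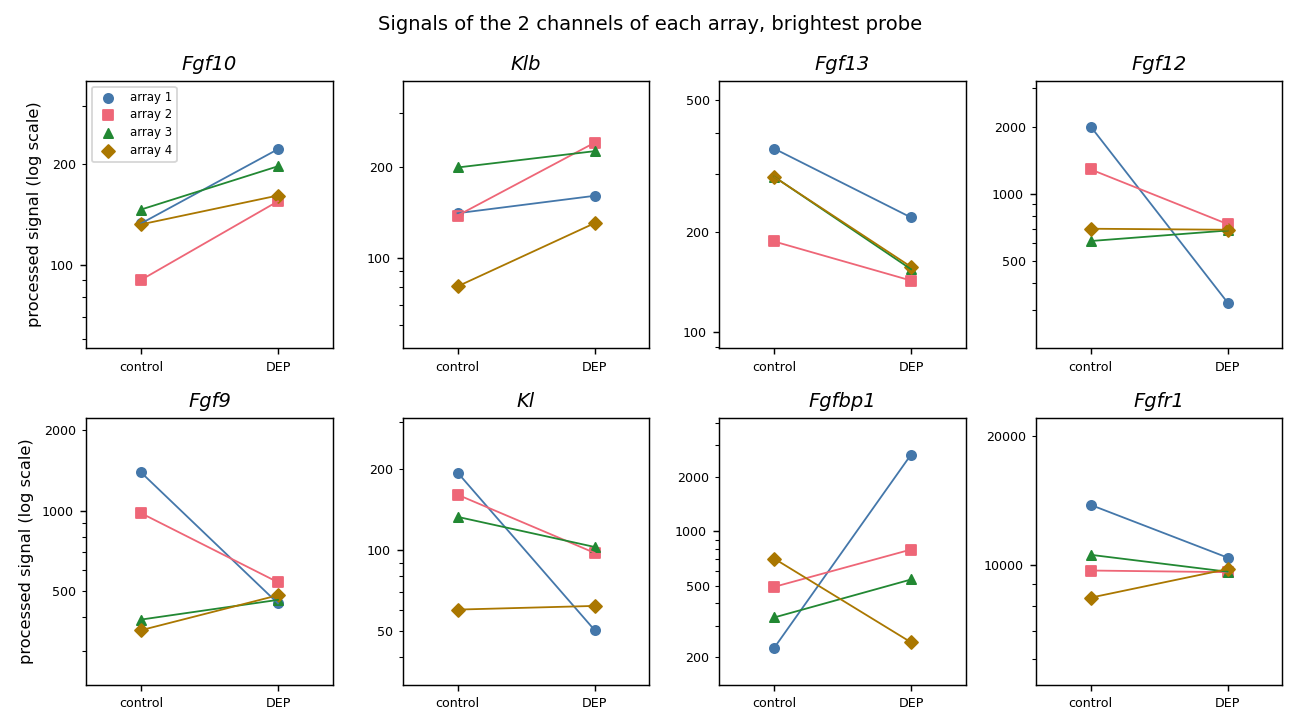
Processed signals (log scale, arbitrary units) of the brightest probe in the control channel and the DEP channel are joined by a line for each of the 4 arrays, for 8 genes of the family. Fgf10 and Klb slope upward and Fgf13 downward on every array, whereas for Fgf12, Fgf9 and Kl the control signals of arrays 1 and 2 lie above those of array 4 and the lines of array 4 are nearly flat or rise; Fgfbp1 crosses over between array 1 and array 4.

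Genes of the nervous system varied along the same arrays. Over all measured genes, 6.07% were lower with an unadjusted p under 0.05 in limma. Over all genes tested, 18.7% had such a p in either direction. Of 14 neuron markers, 14 were lower in the mean, 6 of them with an unadjusted p under 0.05 and 0 after adjustment, and their medians on arrays 1 to 4 were -2.11, -1.25, -0.82 and 0.37. Their summed signal lay between 42820 and 60254 in the DEP channel and between 43906 and 138793 in the control channel, with every marker above background. Markers of the cerebellum, a brain region that no middle ear holds, gave medians of -2.72, -3.55, -0.32 and 0.22; all 11 tested markers were lower, 5 with an unadjusted p under 0.05. The summed signal of the 7 measured cerebellum markers lay between 5240 and 14255 in the DEP channel and between 5108 and 95470 in the control channel. Calb1, Car8 and Cbln3, which mark its Purkinje and granule cells, were above background on 2 control channels and on no DEP channel. For astrocytes 9 of 10 markers were lower, 2 with an unadjusted p under 0.05, and the medians were -2.37, -0.85, -0.32 and 0.20. Their summed signal lay between 61353 and 73810 in the DEP channel and between 54666 and 265404 in the control channel, again with every marker above background. These medians, like the ratios of Fgf12 and Fgf9, were lowest on arrays 1 and 2 and near or above 0 on array 4, where Fgf13 was at -0.90. Their part in the results for Fgf9 and the intracellular FGFs was not tested.

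The sodium channels to which intracellular FGFs bind were taken as a list of 9 genes, 8 of them on the array. Scn2a, a channel of central neurons, was lower with an unadjusted p = 0.0384 in limma and log2 ratios of -3.96, -4.00, -1.06 and 0.04. Scn8a, the channel of the nodes of Ranvier, was higher with an unadjusted p = 0.0403, at 0.30, 0.43, 0.22 and 0.21. The other 6 passed no test, and Scn10a and Scn11a, channels of sensory ganglia, read -4.03 and -3.61 on array 1 and 0.14 and 0.33 on array 4. After adjustment 0 of the 8 passed. The list's median was -0.71, beside 0.03 over all genes measured in the same way.

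The receptors had mean ratios near 0 on the deposited ratios, though normexp with median centring gave means of 0.40 for Fgfr1, 0.42 for Fgfr3 and 0.68 for Fgfrl1, the last with an adjusted p = 0.0430 in limma. FGFR1 is the main receptor of mesenchyme; its brightest probe (A_55_P2057777) gave 10391, 9607, 9631 and 9769 in the DEP channel. The control signals were 13810, 9693, 10551 and 8374, which bracket the DEP signals. On average Fgfr1 read -0.08 ± 0.26 (SD, n = 4 arrays) on the log2 scale, with a 95% interval of -0.45 to 0.28. Fgfr3, known from cartilage and from the supporting cells of the cochlea, had the smallest SD of the family, with a mean of -0.03 ± 0.14 (SD, n = 4 arrays) and an interval of -0.31 to 0.26. Fgfr4 gave 0.06 ± 0.53, with -0.58 on array 1 and 0.70 on array 2. Fgfrl1, a receptor that lacks the kinase, gave 0.19 ± 0.35 and an interval of -0.24 to 0.62, higher on 3 of 4 arrays. Of the 5 receptors 0 had an unadjusted p under 0.05 by the brightest probe, against 12.6% of all measured genes, and their median was 0.06.

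Fgfr2, whose splice forms serve epithelium and mesenchyme, depended on the probe. The brightest one (A_55_P2094881) gave log2 ratios of 0.60, 0.02, -0.11 and -0.10, with a mean of 0.10 ± 0.34 (SD, n = 4 arrays). The other (A_51_P432403, 10 spots per array) gave 1.03, 0.33, 0.39 and 0.17, with a mean of 0.48 ± 0.38, an unadjusted p = 0.0411 and an adjusted p = 0.254 in limma. Both were highest on array 1. The first lay below the second on every array, by 0.38 ± 0.10 (SD, n = 4 arrays), with differences from -0.50 to -0.27, so that the gap between probes was steadier than either ratio.

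Across the family 8 genes had over 1 probe that was measured, which made 10 pairs. The means of a pair were of opposite sign in 4 pairs, those of Fgf18, Fgfr4 and 2 of the 3 pairs of Fgfr1. For Fgfr1 the probes gave -0.08, 0.17 and -0.24. The last (A_55_P1967022) was lower on all 4 arrays and the one before it (A_55_P1967015) was higher on 3. The differences between the means of a pair ran from 0.07 for Fgfr3 to 0.51 for Fgf1 in size. For Fgf12 the means differed by 0.11, small against the means themselves (-0.83 and -0.71). On single arrays the difference between its probes ran from -0.46 to 0.11.

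**Figure D3:**
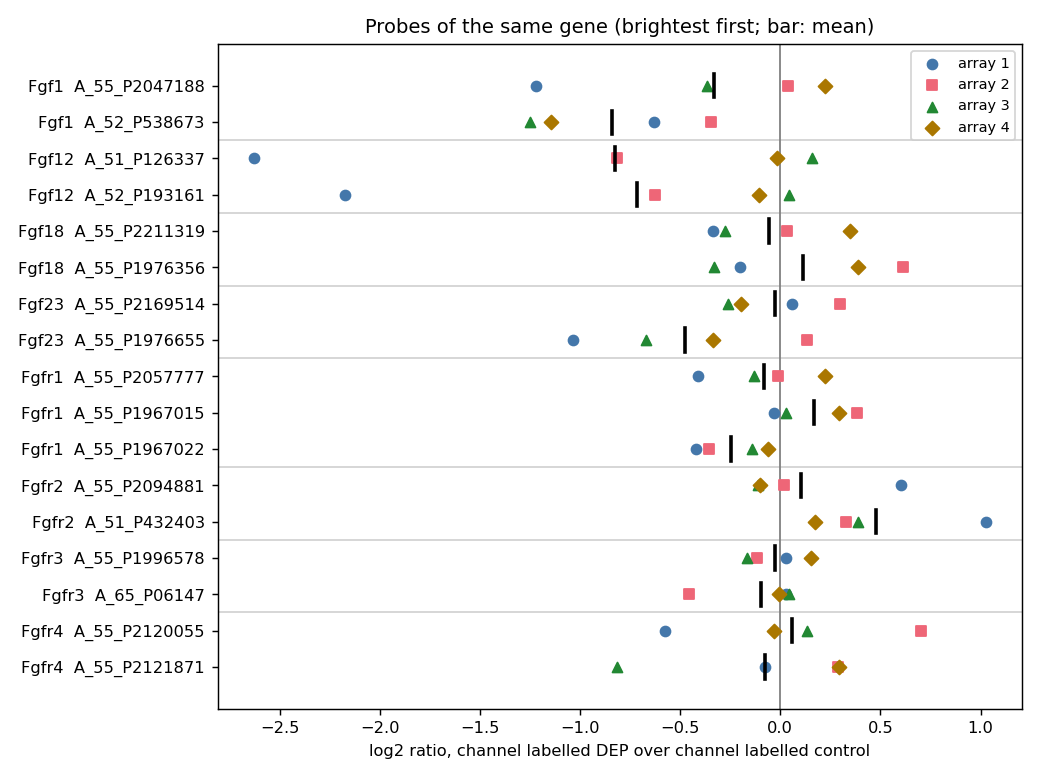
The log2 ratio (x axis, DEP over control) of each measured probe is shown for the 8 genes with over 1 such probe, with 1 symbol per array and a black bar at the mean. The probes of Fgf12 follow each other array by array, the second Fgfr2 probe lies to the right of the first on every array, and the probes of Fgf1 and Fgfr4 differ in the order of the arrays.

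Kl encodes α-klotho, the co-receptor of FGF23, which is made in kidney and choroid plexus. Its signals were 50.5, 97.8, 103 and 62.1 in the DEP channel. The control signals were 195, 161, 133 and 60.1, high on arrays 1 to 3 and low on array 4. Its log2 ratios were -1.95, -0.72, -0.37 and 0.05, with a mean of -0.75 ± 0.86 (SD, n = 4 arrays), a 95% interval of -1.64 to 0.14 and an adjusted p = 0.320 in limma. Without array 4 the mean was -1.01, and without array 1 it was -0.35. Of 8 choroid plexus markers 6 were lower in the mean and 0 had an unadjusted p under 0.05, with array medians of -1.0, -1.04, 0.16 and 0.34. Their summed signal lay between 28413 and 32083 in the DEP channel and between 23568 and 54868 in the control channel, and all were above background. Ttr, transthyretin, which is the defining secretion of this tissue in the brain, read -4.37, -4.25, 0.49 and 1.04. The markers were not alike, since Prlr, the prolactin receptor, read 2.46, 0.35, 0.99 and -1.35, and Aqp1 and Clic6 were above 0 on array 2, at 0.49 and 0.24. Kl shared the low values of arrays 1 and 2 but was below 0 on array 3, where the median of these markers was above it. Their part in the result was not tested.

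Fgfbp1 varied more than any other measured member. FGFBP1 is a secreted carrier that frees FGFs from the matrix, and it is made by squamous and other epithelia. Its signals were 2666, 793, 541 and 243 in the DEP channel. In the control channel they were 226, 492, 333 and 707. The DEP channel was 11.8-fold above the control on array 1, and the control was 2.91-fold above the DEP channel on array 4. The log2 ratios of 3.56, 0.69, 0.70 and -1.54 gave a mean of 0.85 ± 2.09 (SD, n = 4 arrays), with a 95% interval of -1.25 to 2.96 and an adjusted p = 0.595 in limma. The mean was -0.05 without array 1 and 1.65 without array 4.

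Some epithelial genes, chosen here after their values were seen, had the same order of arrays at the ends as Fgfbp1. Krt14, a keratin of basal cells, read 2.95, 0.57, 0.92 and -1.80 on arrays 1 to 4. Its partner Krt5 read 2.17, 0.35, 0.08 and -1.24. Both were thus highest on array 1 and lowest on array 4, as was Sdc1, an epithelial proteoglycan from the heparan sulfate list, at 3.31, 0.45, 0.69 and -1.70. Epcam and Cdh1, adhesion proteins of epithelia at large, had the same ends with 1.62 and 1.74 on array 1 and -0.33 and -0.90 on array 4. The remaining markers of the list read below 0 on array 1, at -0.26 for Krt8, -0.47 for Krt18, -1.09 for Muc5b, -0.24 for Foxj1, -1.32 for Ltf and -0.06 for Bpifa1. The list of 10 epithelial markers as a whole had medians of -0.15, 0.31, -0.31 and -0.54, 5 means above and 5 below 0, and Muc5b, the mucin of glands, as the 1 marker lower with an unadjusted p under 0.05. Its summed signal lay between 188683 and 282876 in the DEP channel and between 203609 and 352129 in the control channel, with every marker above background. Their part in the result for Fgfbp1 was not tested.

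**Figure D4:**
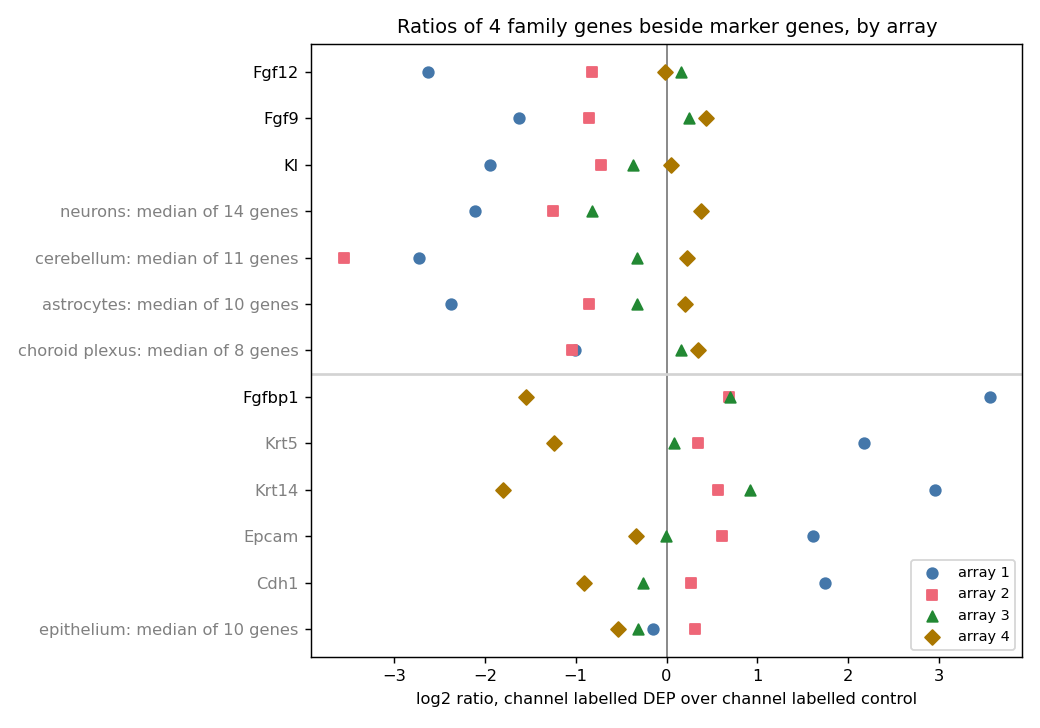
Log2 ratios (x axis, DEP over control) on each of the 4 arrays are shown for Fgf12, Fgf9, Kl and Fgfbp1 in black labels, with the medians of marker lists and of single epithelial markers chosen after their values were seen in grey labels. Fgf12, Fgf9 and Kl are lowest on array 1, as are the neuron and astrocyte medians, while Fgfbp1, Krt5 and Krt14 are highest on array 1 and lowest on array 4.

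Fgfbp3 and Frs2 had means just above 0. Fgfbp3, another carrier, gave a mean of 0.15 ± 0.26 (SD, n = 4 arrays), with an interval of -0.21 to 0.51. Frs2, the docking protein through which the receptors signal, gave log2 ratios of -0.04, 0.28, 0.27 and 0.26. Its mean was 0.19 ± 0.15 (SD, n = 4 arrays), with an interval of -0.10 to 0.48.

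For genes measured in part, the arrays give less. FGF8 patterns the midbrain and the limb and induces the ear in embryos. The brightest of its 3 probes (A_55_P2101508) gave 98.8, 78.1, 54.7 and 73.2 in the DEP channel, above background on all arrays. The control signals were 63.9, 60.7, 33.1 and 38.6, above background on 3 arrays. All arrays were higher in the DEP channel, as were 16.2% of the genes tested, though the channels overlapped. As log2 ratios these gave 0.63, 0.36, 0.73 and 0.93, with a mean of 0.66 ± 0.23 (SD, n = 4 arrays), an unadjusted p = 0.00425 and an adjusted p = 0.141 in limma. Under normexp the mean was smaller, at 0.28 with loess and 0.21 with median centring. A second probe (A_55_P2101506), above background on no array, gave ratios on 3 arrays of -0.73, -1.49 and -2.14, so that with the mean of the probes Fgf8 turned to -0.12. The third had no ratio.

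Fgf15, the intestinal hormone that signals to the liver, was lower on all 4 arrays with -0.41, -0.29, -0.62 and -0.75 and an unadjusted p = 0.00936 in limma (0.163 under normexp with loess), but its probe was above background on none of them, so no level can be read. Fgf2, with 10 spots per array, had at least a single spot above background on 3 DEP and 2 control channels. Its averaged control signals of 17.0, 8.69, 14.3 and 11.2 lay under the lowest spot signal above background on each array. The averaged DEP signals did so on arrays 1, 2 and 4. Its mean log2 ratio of 0.06 ± 0.45 (SD, n = 4 arrays) thus gives no level. Fgf5, which ends hair growth, was above background on 1 control channel, and Fgf4, a factor of early embryos, on 3 DEP channels and 1 control channel. Frs3, the second docking protein, was above background on 3 DEP and 2 control channels and ranged from -0.82 on array 1 to 2.06 on array 4, where the control signal of 6.67 was not above background, so that the latter is no measured ratio. Fgf17 was above background on 1 DEP channel, and Fgf22, a ligand of the FGF7 subfamily, on 2 DEP and 2 control channels. Of Fgf3, Fgf16, Fgf17, Fgf20 and Fgf21, none had a ratio on 3 arrays.

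The other genes of the pathway were taken from 3 further lists. Of 15 signal transducers, 2 were higher with an unadjusted p under 0.05 in limma, 0 were lower and 0 passed after adjustment. Gab1, a docking protein beside FRS2, read 0.40, 0.47, 0.62 and 0.32. Sos1, the exchange factor that loads RAS, read 0.45, 0.66, 1.51 and 1.63 with an adjusted p = 0.163, and its control channel was above background on 1 array only. Both were higher on every array. The RAS, RAF, MEK and ERK genes had mean log2 ratios between -0.31 for Map2k1 and 0.21 for Nras, and the list's median was 0.01.

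Feedback regulators and targets report on the pathway's activity. Of 13 tested genes 2 were higher and 1 was lower with an unadjusted p under 0.05, and 0 passed after adjustment. Il17rd, a membrane inhibitor of FGF signalling also named Sef, read 0.30, 0.82, 0.32 and 0.43. Cbl, the ubiquitin ligase that removes active receptors, read 0.49, 0.29, 0.54 and 0.25. The lower gene was Etv1, a transcription factor that neurons of the cerebellum and of sensory ganglia also express, at -3.15, -1.25, -0.62 and -0.28. Like Fgf12 and the median of the neuron markers, Etv1 was lowest on array 1. For the other genes of the list mean log2 ratios were 0.21 for Spry1, 0.36 for Spry2 and -0.66 for Spry4 of the sprouty family, 0.17 for Spred1 and -0.21 for Spred2 of the related inhibitors, -0.01 for Dusp6 and 0.29 for Dusp4 of the phosphatases, and 0.12 for Etv4 and -0.21 for Etv5 of the transcription factors. Spry4 was below 0 on all 4 arrays, with -1.89 on array 1, but above background on 2 DEP and 1 control channels, and Spry3 was above background on no array, so no level is given for it. Dusp4 read 1.85 on array 1 and -0.66 on array 4.

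Heparan sulfate genes numbered 16, of which 2 were higher with an unadjusted p under 0.05, 0 were lower and 0 passed after adjustment. Hs2st1, which adds the 2-O-sulfate that FGF binding needs, had the smallest SD of the list, with log2 ratios of 0.58, 0.63, 0.58 and 0.59 and an adjusted p = 0.112 in limma. Ndst1, which starts the sulfation, read 0.66, 0.51, 0.31 and 0.20. Over the 4 pathway lists, sodium channels included, 52 genes were tested, of which 7 were higher and 2 lower at an unadjusted p under 0.05, again beside 18.7% of all genes in either direction.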

How the data were processed

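RNA of DEP and control middle ears was compared on 4 two-colour arrays, 1 sample each. Spots were quantified by the authors in Feature Extraction (10.10.1.1), and they deposited, per spot, a log10 ratio of Cy5 over Cy3, processed and raw signal intensities and quality flags; the deposited processed intensity is background-subtracted and dye-normalized. A table of the authors' log10 ratios, rounded, served as an alternative, and 0 columns of values lacked a sample. The software read 43020 spots per array that are no controls, of which 6179 to 8558 had no ratio, 164 to 274 were flagged as outliers and 0 were saturated. The array's annotation is older than the RefSeq table used for names (GRCm38.p6).

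Log10 ratios were turned into log2 ratios. Outlier spots were dropped, as were spots with no ratio, before the spots of a probe were averaged. Probes with a ratio on at least 3 arrays were tested against 0 with lmFit and eBayes of limma 3.58.1 in R 4.3.3, two-sided, and adjusted by Benjamini-Hochberg over all 31577 probes. A gene is its brightest probe. The fit was tested on simulated data. The number of arrays limits the precision.

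For a bound, the processed signals were put through Aquantile normalization between arrays. A bound sets the mean normalized log2 signal of the brighter channel over its 4 arrays against that of the dimmer one. In the dimmer one each array takes the higher of its own signal and the lowest signal well above background. Every gene of the family is accounted for; per-array values are given for genes above background in each channel of every array, a bound where 1 channel was never above background and the other was on some array, and detection counts otherwise. Such a bound came to under 1-fold for Fgf5, Fgf17 and 1 probe of Fgf14, and no fold is given for them. As exceptions, the ratios of Fgf2, Fgf8, Fgf11, Fgf15, Frs3 and of the further probes were named after their values were seen, as were the single markers set beside a gene. The members, the marker lists and the pathway lists were chosen with earlier results of these data known. Promoter windows came from RefSeq. Alternatives were normexp (offset 50) with loess or with median centring, the authors' table, detection filters on 1 or both channels, spots without a ratio or flagged spots kept, an intensity trend, a fit without moderation, probes averaged per gene and each array left out in turn. Tables and figures were made in Python 3.11.15 with pandas 2.3.3 and matplotlib 3.10.9.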

Additional observations from a re-analysis of the deposited data

Results flagged for a closer look

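In 5 of the 76 values of the family that could be examined, a lone array stood apart from the other 3, by a gap that took up more of the range of the 4 arrays than Dixon's 95% limit allows; chance gives this for about 1 in 20 values. For Fgf12 (A_51_P126337) the log2 signal of the channel labelled DEP was low on array 1, with a gap of 0.919 of the range. For Fgf6 (A_55_P2073612) the log2 signal of the channel labelled control was high on array 1, with a gap of 0.874. The log2 ratio of Fgf2 (A_51_P399845) was low on array 1 (0.853), that of Frs2 (A_52_P105138) was low on array 1 (0.95), and that of the second Fgfr3 probe (A_65_P06147) was low on array 2 (0.902).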

How the results depend on the processing

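The count of genes with an adjusted p under 0.05 was 0 under each alternative except normexp with median centring, which gave 4 (Fgf10, Fgf13, Fgf23 and Fgfrl1), 11 of 28 genes with an unadjusted p under 0.05 in place of 6 (37.1% of all genes in place of 18.7%), and a median of 0.23 for the measured genes. That setting also gave 2988 genes of all with an adjusted p under 0.05, 2784 of them higher and 204 lower, and moved the median of all genes from 0.03 to 0.11. Of genes past 2-fold the share that was higher was 35.2%, against 63.6% under that centring, 17.6% under normexp with loess and 22.3% with both channels above background. With the channels exchanged these shares are 64.8%, 36.4%, 82.4% and 77.7%. With the mean of probes, 1 gene was past 2-fold (Fgf14, -1.77, a value that 2 probes above background on no DEP channel carry). With 1 array left out, 2 ratios were enough for a test in place of 3. Then 0 to 4 genes were past 2-fold: Fgf12 without array 3, and Fgf5, Fgf12, Kl and Fgfbp1 without array 4. Without array 4, 10.2% of all genes were, against 6.75% with all arrays. The unadjusted count with 1 array left out was 5 to 8 (11.3% to 18.8% of all genes), and the median -0.04 to 0.03. These counts hold genes with 2 ratios left: Fgf5 and Fgf21 without array 4, Fgf21 without array 3 and Fgf22 without array 2. Fgf21 was above background on no array and is not among the 28 genes. The cause of these shifts was not tested.

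The direction of 12 of 28 genes held under each of the 14 alternatives that gave a value (Fgf6, Fgf9, Fgf10, Fgf12 to Fgf15, Frs2, Kl, Klb, Fgfrl1 and Fgfbp3); Fgf15 has none under either detection filter. The intensity trend, the fit without moderation and the filters leave a probe's mean as it is, and the authors' table only rounds it. Under normexp with loess the turned values were -0.020 for Fgf2, -0.0042 for Fgf4, -0.037 for Fgf7, 0.043 for Fgfr3, -0.029 for Fgfr4 and -0.090 for Frs3. Median centring gave 0.13 for Fgf1, 0.11 for Fgf18, -0.20 for Fgf2, -0.042 for Fgf22, 0.47 for Fgf23, -0.14 for Fgf4, 0.40 for Fgfr1, 0.42 for Fgfr3 and -0.22 for Frs3. With outlier spots kept, Fgf2 was -0.016, and with the mean of probes Fgf18 was 0.029, Fgf8 -0.12 and Fgfr4 -0.010. With each array left out in turn, the ranges that crossed 0 were -0.19 to 0.035 for Fgf18, -1.39 to 0.052 for Fgf5, -0.052 to 1.65 for Fgfbp1, -0.18 to 0.026 for Fgfr1, -0.065 to 0.17 for Fgfr2, -0.044 to 0.28 for Fgf2, -0.085 to 0.021 for Fgfr3, -0.16 to 0.27 for Fgfr4, -0.13 to 0.053 for Fgf23, -0.014 to 0.37 for Fgf4, -0.18 to 0.0066 for Fgf11, -0.039 to 0.12 for Fgf7 and -0.50 to 0.46 for Frs3. Each ratio already pairs the channels of an array, so the test of the ratios is the paired one, and no further block applies. Signal over background limits the 13 genes not measured in both channels.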
